A study of Caenorhabditis elegans with 2 samples.

Results

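The basic helix-loop-helix (bHLH) and T-box transcription factor genes of Caenorhabditis elegans were examined for regions bound by the nuclear hormone receptor NHR-11. Members were the protein-coding genes whose symbol starts with hlh-, tbx- or mxl-, together with mdl-1, mml-1, lin-32, cnd-1, ngn-1, ref-1 and mls-1. This rule uses gene names only and found 54 of 19973 protein-coding genes, of which 34 encode bHLH and 20 encode T-box proteins. They carry 53 symbols, because tbx-30 belongs to 2 gene identifiers, WBGene00006549 and WBGene00022000. Each gene was scored by the highest peak signal with its summit between 1000 bp upstream and 200 bp downstream of an annotated 5' end of a protein-coding transcript, which is called the promoter window here.

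Chromatin immunoprecipitation and sequencing (ChIP-seq) was done on whole L1 larvae, the first larval stage, from a pool of both sexes (male and female in the labels). The strain was OP305, with genotype unc-119(ed3) III; wgIs305, in which the wgIs305 insertion supplies NHR-11 tagged with eGFP and every animal also carries the unc-119(ed3) allele. The 2 biological replicates form 1 group, without an untagged strain or another stage beside it, so no test between groups exists and no p-value is given. What drives the transgene is not stated in the labels or headers. Whole animals were used, so a strong region in few cells and a weaker one in many cannot be told apart, and the peak lists hold no expression by which to check the stage. Replicate 1 and replicate 2 each had 30000 candidate peaks, their pool had 28727, and 1141 of these formed the set called reproducible by IDR (irreproducible discovery rate), on the ce11 build. The signal of a peak is the authors' own value on an unstated scale, so it ranks peaks within a list. Every pooled candidate from a signal of 49.9 upwards was called, and none below it. Depth is unknown because the lists give no reads, and the intervals of shares cover only the counting of genes.

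bHLH proteins bind DNA as dimers, typically at the E-box, CANNTG, through a basic stretch next to the helix-loop-helix. E proteins such as HLH-2 pair with tissue-restricted partners of the Achaete-Scute, Atonal and Twist types to specify neurons, mesoderm and muscle. Max, Mad and Mondo proteins, which also carry a leucine zipper, act in growth and metabolism. T-box proteins bind through a domain of another fold and act mainly in the embryo, in pharynx, muscle and skin precursors.

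A called summit lay in the promoter window of 5 of the 54 members (9.26%, exact Clopper-Pearson 95% interval 3.08 to 20.3%), where 4.79% of all protein-coding genes had one. The background lies within the interval, so the share is not a result about the members as a list. The 5 genes were hlh-11, mdl-1, mxl-3, hlh-30 and ref-1, all bHLH genes. Any pooled candidate was present at 19 members (35.2%, interval 22.7 to 49.4%), against 41.1% of all genes, which is again within the interval. Among genes with a candidate, 5 of 19 members (26.3%) and 11.6% of all genes had a called one. Over these 19 members the median of the highest pooled signal was 21.0, and over the 8211 genes with a candidate it was 21.2. The median window was 1201 bp for members and for all genes, and 46 of the 54 members had a single annotated 5' end, as had 73.7% of all genes.

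**Figure D1:**
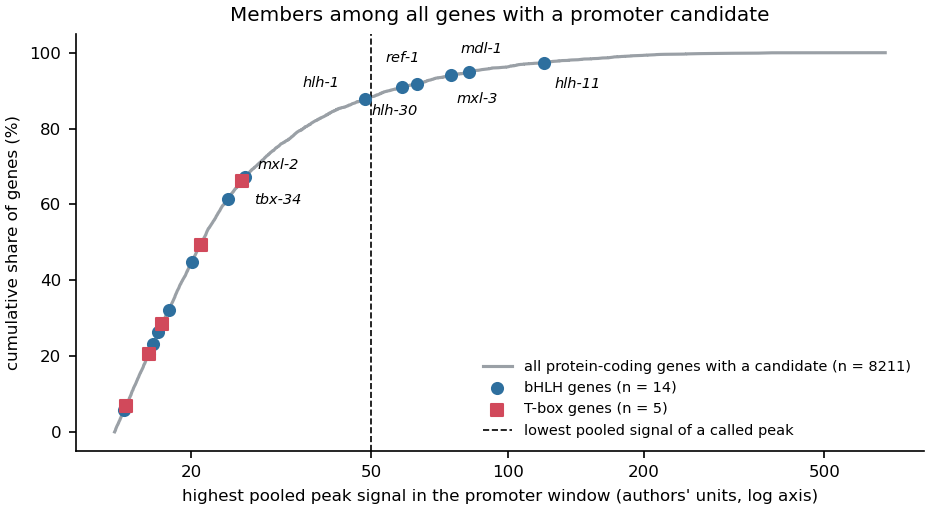
Cumulative share of the 8211 protein-coding genes with a promoter candidate (y axis, percent) by their highest pooled peak signal (x axis, authors' units, log axis), with 14 bHLH genes as circles and 5 T-box genes as squares on the curve. The 5 called members and hlh-1 lie between 48.5 and 120.1, around and above the dashed line at the lowest called signal, while the other 13 members lie at 26.3 or less.

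The sequence under each of the 5 called summits, and under the hlh-1 summit just below the called set, is shown because these 6 windows carry the strongest promoter signal of the members. Each runs from 50 bp before to 50 bp after the summit on the plus strand of ce11 (WBcel235, RefSeq sequence). Capitals mark every match, on either strand, to the 8 motifs searched. The E-box was sought as CANNTG and, within it, as CACGTG and as CAGCTG. Part of the T-box site was sought as GGTGTG, the GAGA repeat as GAGAGA, and a further word that is common at called summits as GACGCA. Core sites of nuclear receptors were sought as AGGTCA and as AGTGCA. The windows are chrIII:9619272-9619372 for hlh-11, chrX:6742248-6742348 for mdl-1, chrX:13351076-13351176 for mxl-3, chrIV:4019891-4019991 for hlh-30, chrII:10217767-10217867 for ref-1 and chrII:4518463-4518563 for hlh-1.
hlh-11: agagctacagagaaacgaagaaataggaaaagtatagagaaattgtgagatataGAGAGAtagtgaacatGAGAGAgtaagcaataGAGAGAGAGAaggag
mdl-1: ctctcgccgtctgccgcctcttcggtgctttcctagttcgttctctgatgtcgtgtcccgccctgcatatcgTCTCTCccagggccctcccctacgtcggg
mxl-3: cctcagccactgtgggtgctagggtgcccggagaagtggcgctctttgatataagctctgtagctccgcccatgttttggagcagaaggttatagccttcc
hlh-30: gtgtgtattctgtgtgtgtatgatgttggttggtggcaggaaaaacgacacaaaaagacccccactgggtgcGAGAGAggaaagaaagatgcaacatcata
ref-1: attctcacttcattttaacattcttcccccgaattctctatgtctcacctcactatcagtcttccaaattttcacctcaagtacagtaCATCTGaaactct
hlh-1: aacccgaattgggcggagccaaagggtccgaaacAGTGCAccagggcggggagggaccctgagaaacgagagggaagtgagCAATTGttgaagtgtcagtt

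GAGAGA, or TCTCTC on the plus strand, was in the windows of hlh-11, mdl-1 and hlh-30, that is 3 of 5 called members. It was in 30.6% of the windows of all called peaks and in 8.35% of those of all pooled candidates. In the hlh-11 window it occurred 5 times, counting overlaps, at 4 to 40 bp from the summit, and in the mdl-1 and hlh-30 windows once, 22 bp from it. Among the uncalled members hlh-10 also had it. The general E-box form CANNTG was in the ref-1 window, as CATCTG, and in none of the other 4 called members. It was in 43.6% of called windows and 31.2% of pooled ones. CACGTG and CAGCTG were in none of the 19 member windows, and in 5.61% and 5% of called windows and 1.93% and 2.08% of pooled ones. The hlh-1 window held CAATTG 31 bp from the summit and AGTGCA 16 bp from it. AGTGCA was in 6.13% of called and 3.42% of pooled windows, and no other member window had it. GACGCA (19.6% of called and 3.46% of pooled windows) and AGGTCA (2.45% and 2.33%) were in no member window, and GGTGTG (3.77% and 2.47%) was in that of tbx-43. The mxl-3 window held none of the 8. A match is a run of letters and not a shown binding site.

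The base composition of these windows differed widely among the members. The GC content was 63.4% at mdl-1, 56.4% at hlh-1, 55.4% at mxl-3, 45.5% at hlh-30, 37.6% at ref-1 and 36.6% at hlh-11. The median was 45.5% over the 5 called members and also over all called peaks, 35.6% over the 19 members with a candidate, and 33.7% over all pooled candidates.

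The 2 genes listed together here as the TFEB and AP-4 type were called, as were 4.79% of all genes. The list was made with earlier results of these data known, so this is not a result about a class. hlh-11 (WBGene00001955, chrIII:9619711-9626529, plus strand) is the worm gene related to AP-4, and its summit was 389 bp upstream of its nearest 5' end, outside any annotated gene. Its signal was 120.1 in the pool, rank 238, with 66.3 in replicate 1, rank 212, and 49.4 in replicate 2, rank 339. It was the strongest member in the pool and in each replicate. The gene has 6 annotated 5' ends, and the summit belongs to the 3 outermost ones; the RefSeq transcripts begin only from position 9622147 on, 2825 bp downstream of the summit, and with RefSeq 5' ends hlh-11 was not called. hlh-30 (WBGene00020930, chrIV:4014793-4034951, minus strand) encodes the worm TFEB, a regulator of lysosome and autophagy genes that is known for its role in fasting. Its summit lay inside the gene, in an intron of the longer transcripts, 897 bp upstream of the nearest internal 5' end and 15010 bp downstream of the outermost one. It fell in the window of 4 of its 10 5' ends, which together cover 5547 bp. The pooled signal was 63.1, rank 765, and it was lower in replicate 1, at 24.2 with rank 1688, than in replicate 2, at 35.9 with rank 610.

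Of the 5 genes of the Max, Mad and Mondo network, mdl-1 and mxl-3 were called (40%), where 4.79% of all protein-coding genes were. This list too was made with earlier results of these data known, so the count is only a description. In the same network mxl-2 and mml-1 had weaker candidates and mxl-1 had no pooled candidate. mdl-1 (WBGene00003163, chrX:6742351-6743899, plus strand) encodes the Mad protein that dimerizes with MXL-1, and its summit was 53 bp upstream of its only 5' end. Its signal was 82.0 in the pool, rank 483, 44.3 in replicate 1, rank 479, and 33.9 in replicate 2, rank 671. mxl-3 (WBGene00003511, chrX:13349639-13350804, minus strand) encodes a Max-like protein known to repress lysosomal lipase genes in fed animals. Its summit was 322 bp upstream of the 5' end, within the non-coding RNA gene C49F8.5. The signal was 74.8 in the pool, rank 564, 31.7 in replicate 1, rank 904, and 46.8 in replicate 2, rank 377. Both genes thus stood among the strongest 1141 candidates of each replicate.

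The other members of the network were far below. mxl-2, which encodes the partner of the Mondo protein MML-1, had a pooled signal of 26.3 at a summit 439 bp upstream that also lies in the window of ubc-20 and nearer to that gene. It reached 19.05 in replicate 1 and had no candidate in replicate 2. mml-1 had 20.05 in the pool and 16.2 in replicate 2, with none in replicate 1. Its strongest region within 10 kb upstream was outside the window, 1935 bp upstream, with a pooled signal of 38.2, also short of the called set. mxl-1 had only a replicate 2 candidate, at 10.9.

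The 6 genes of the REF-1 family encode proteins with a pair of bHLH domains and include Notch targets of the embryo. Among them only ref-1 was called (16.7%), where 4.79% of all protein-coding genes were. Its summit was 654 bp upstream of the only 5' end of the gene (WBGene00004334, chrII:10218471-10220022, plus strand), within the non-coding RNA gene T01E8.10. The signal was 58.3 in the pool, rank 867, with 39.0 in replicate 1, rank 593, and 21.2 in replicate 2, rank 1804. ref-1 was thus outside the strongest 1141 of replicate 2. hlh-28 had a weak candidate, at 16.5 in the pool, 10.2 in replicate 1 and 7.43 in replicate 2. hlh-25, hlh-26, hlh-27 and hlh-29 had no candidate in any of the 3 lists. Pooled candidates were thus present at 2 of the 6 (33.3%), against 41.1% of all genes, a difference that was not tested.

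hlh-1 (WBGene00001948, chrII:4518574-4522528, plus strand), the MyoD gene of body wall muscle, was the member nearest below the called set. Its summit was 61 bp upstream of the nearest 5' end, with a pooled signal of 48.5, rank 1208, just under the lowest called signal of 49.9. It had 28.3 in replicate 1, rank 1150, and 17.4 in replicate 2, rank 3057, so that it missed the strongest 1141 in both lists. hlh-8, the Twist gene of the postembryonic mesoblast lineage, had no candidate in any list. hlh-2, the E protein gene, had a summit 59 bp downstream of its 5' end, with 16.9 in the pool and 16.2 in replicate 1. The replicate 2 candidate in its window, at 10.7, did not overlap this one. It overlapped another pooled candidate, 1099 bp upstream and outside the window.

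**Figure D2:**
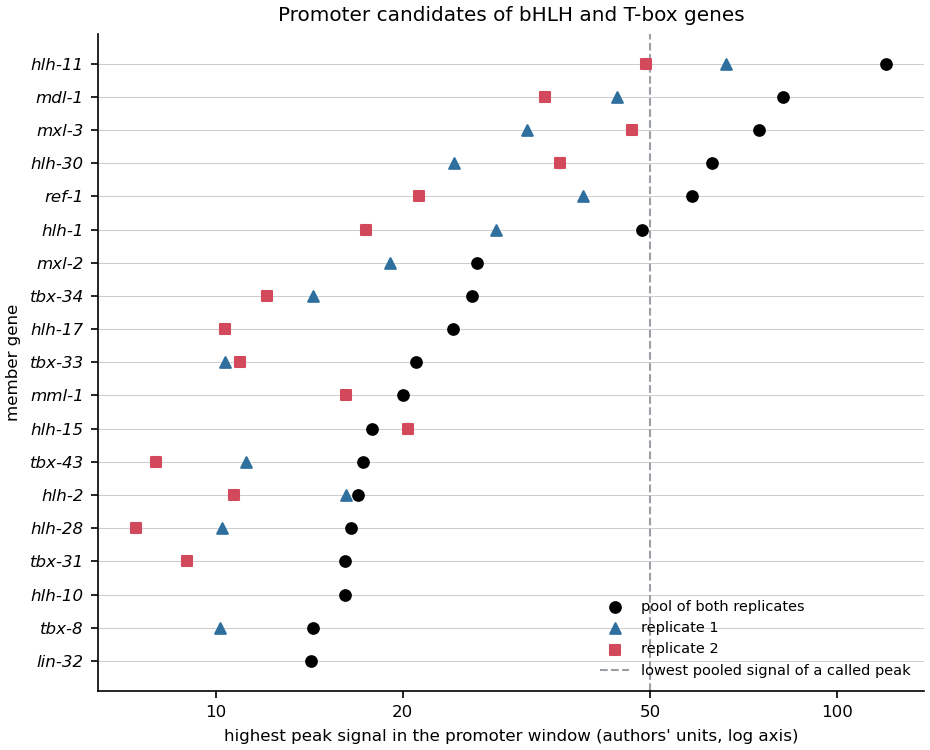
Highest peak signal in the promoter window (x axis, authors' units, log axis) of the 19 members with a pooled candidate (y axis), for the pool (circles), replicate 1 (triangles) and replicate 2 (squares). Only the top 5 genes lie right of the dashed line at the lowest called pooled signal of 49.9, hlh-1 lies just left of it at 48.5, and the next gene, mxl-2, is at 26.3.

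The Achaete-Scute type includes proneural genes, which commit cells to a neural fate. None of its 6 genes had a pooled candidate, where 41.1% of all genes had one. The difference was not tested. Among them hlh-3 and hlh-14, which act in neuron formation, and hlh-12 had none in any list, while hlh-6, a gene of the pharyngeal glands, had 10.9 in replicate 2, hlh-4 had 13.3 in replicate 2 and hlh-19 had 8.79 in replicate 1. Of the Atonal, neurogenin and NeuroD type, lin-32 had 14.2 in the pool and no candidate in either replicate. ngn-1 had 7.99 in replicate 2 only, and cnd-1 had none. Weak pooled candidates were also present at 3 of the 7 Olig and related genes (42.9%, near the 41.1% of all genes with any pooled candidate). hlh-17, which is active in glia of the head, had 24.1 in the pool and 10.3 in replicate 2. A replicate 1 candidate of 13.8 overlapped the pooled one of hlh-17, with its summit outside the window. hlh-10 had 16.1 in the pool only. hlh-15 had 17.8 in the pool with no candidate in replicate 1, and 20.4 in replicate 2, rank 2000, which is close to ref-1 and above hlh-1 in that list. hlh-16 (9.87) and hlh-32 (11.99) had a candidate in replicate 1 only, hlh-31 had one in replicate 2 only (7.74), and hlh-13 had none. Of the other hlh genes, hlh-34 had 7.43 in replicate 2 and hlh-33 none.

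No T-box gene was called. For 0 of 20 genes, the approximate upper limit of 3 counts that a count of 0 allows is 15%. The upper end of the exact Clopper-Pearson 95% interval, a different limit, is 16.8%. Both are above the background of 4.79%, so a lower share than in all genes was not detectable. Pooled candidates were present at 5 of the 20 (25%), against 41.1% of all genes, and the difference was not tested. Their signals ran from 14.3 to 25.9, which is below the called set throughout. tbx-34 had 25.9 in the pool, 14.4 in replicate 1 and 12.1 in replicate 2, at a summit shared with the window of wht-8. tbx-33 followed with 21.0 in the pool, 10.3 in replicate 1 and 10.9 in replicate 2. The others were tbx-43 at 17.2, tbx-31 at 16.1 and tbx-8 at 14.3 in the pool. tbx-8 acts in the shaping of the embryo together with tbx-9, which had 9.55 in replicate 2 only.

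Of the 7 T-box genes with a described role, tbx-8 alone had a pooled candidate, against 41.1% of all genes, a difference that was not tested. tbx-2, needed for pharyngeal muscle, had 8.56 in replicate 1 only. tbx-35, which specifies the MS blastomere, had 16.8 in replicate 1 only. The paired genes tbx-37 and tbx-38, which act in anterior pharynx formation, and mls-1, which acts in uterine muscle fate, had no candidate in any list, nor had tbx-11, tbx-32, tbx-40 and either tbx-30 gene. tbx-7 (10.1) and tbx-36 (9.62) had a candidate in replicate 1 only, and tbx-39 (9.15) and tbx-41 (7.34) in replicate 2 only.

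**Figure D3:**
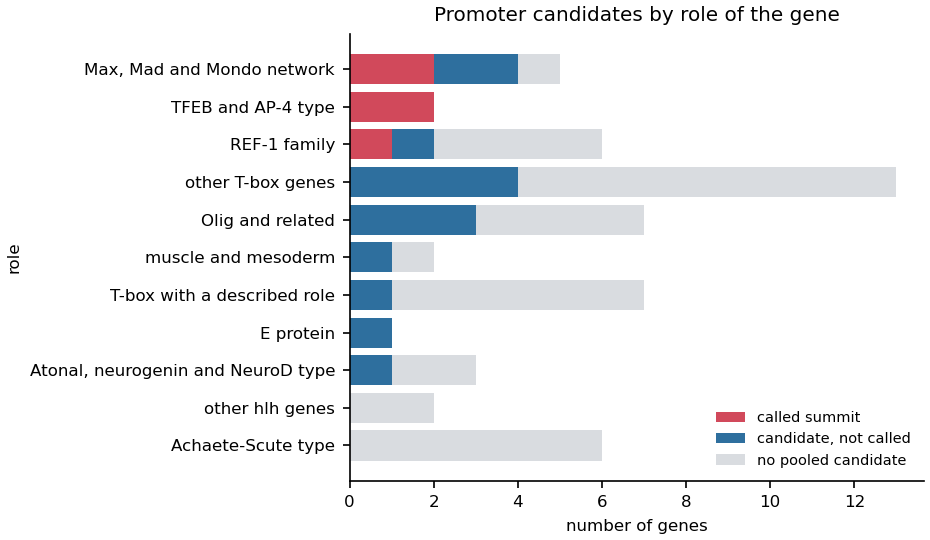
Number of member genes (x axis) in each role (y axis), split by whether the promoter window held a called summit, an uncalled pooled candidate or no pooled candidate. Called summits occur in the Max, Mad and Mondo network (2 of 5), the TFEB and AP-4 type (2 of 2) and the REF-1 family (1 of 6). Of all protein-coding genes 4.79% had one. The role lists were made with earlier results of these data known, so these counts are a description.

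By family, 5 of 34 bHLH genes were called (14.7%, exact interval 4.95 to 31.1%), with the background of 4.79% just under the lower bound. The members were chosen with earlier results of these data known, so this interval is a description. In the same windows 2 of 63 genes with ceh- symbols (3.17%) and 13 of 269 with nhr- symbols (4.83%) were called. Of 8 bHLH and T-box genes whose names are outside the rule, hif-1, the hypoxia factor gene, was called, at a pooled signal of 53.1, rank 1013, with 25.6 in replicate 1 and 23.9 in replicate 2. ahr-1 had 16.9 in the pool, and hnd-1, lin-22, sbp-1, aha-1, cky-1 and mab-9 had no pooled candidate.

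The replicates differed in which members they placed highest. Candidates in both replicates were present at 11 of the 54 members (20.4%) and 25.7% of all genes. The strongest 1141 candidates of replicate 1 put a summit in the window of 4 members (7.41%), against 4.67% of all genes, and those of replicate 2 also in 4 (7.41%), against 4.57%. hlh-30 was missing from the first and ref-1 from the second. Among called genes, 3 of 5 members and 67.8% of all genes were among the strongest of both replicates. The mean signal over the replicates was 57.8 ± 11.99 (SD, n = 2) for hlh-11, 39.1 ± 7.35 (SD, n = 2) for mdl-1, 39.2 ± 10.7 (SD, n = 2) for mxl-3, 30.03 ± 8.25 (SD, n = 2) for hlh-30, 30.1 ± 12.6 (SD, n = 2) for ref-1 and 22.8 ± 7.66 (SD, n = 2) for hlh-1. Apart from hlh-11, which led both lists, the order of these genes changed between replicates and neighbours in the order of means differed by less than the larger of their SDs, with no test possible. Whether the lists of the replicates share a scale is not stated, so the means and SDs only describe the deposited values.

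The ratio of replicate 1 to replicate 2 showed the same. It was 1.84 at ref-1, 1.62 at hlh-1, 1.34 at hlh-11, 1.31 at mdl-1, 0.676 at mxl-3 and 0.675 at hlh-30. Over 952 called genes with a candidate in both, the median was 1.11 and the central range from the 10th to the 90th percentile was 0.711 to 1.75. mxl-3 and hlh-30 lay below this range and ref-1 above it. Summits were compared for the replicate candidates that overlap the pooled one. They lay 1 to 41 bp from the pooled summit at the 5 called members, and 9 and 5 bp at hlh-1. Such closeness is partly built in, because overlap was required and the pool holds the same 2 replicates.

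**Figure D4:**
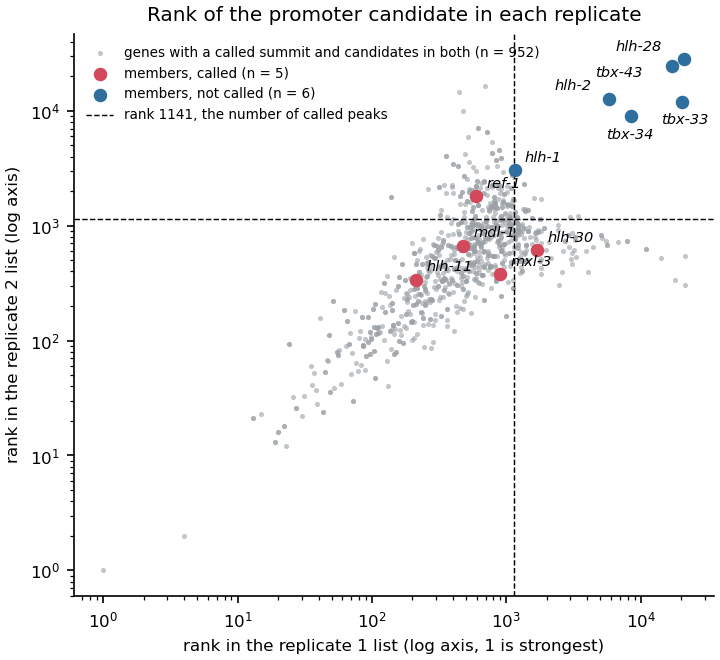
Rank of the strongest promoter candidate in the replicate 1 list (x axis) and the replicate 2 list (y axis), both log axes with 1 the strongest, for 952 called genes (grey), 5 called members (red) and 6 uncalled members with a candidate in each list (blue). hlh-11, mdl-1 and mxl-3 lie within rank 1141 in both lists, hlh-30 and ref-1 in 1 list each, and hlh-1 in neither.

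Among called genes, the position of the members' summits was ordinary in some respects. All 5 called members had the summit upstream of the nearest own 5' end, as had 95.8% of called genes, at a median of 389 bp against 253 bp. Their peaks were 370 bp long. The median pooled signal was 74.8 over the 5 and 75.9 over all called genes. Each of the 5 summits lay in the window of no other protein-coding gene, which held for 47.3% of called genes. On the X chromosome 2 of 12 members were called, and 3.41% of all genes there.

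Below hlh-1, the 13 members with a pooled candidate had -log10 q-values, as the authors gave them, from 0.0251 to 0.395, which are q-values of 0.944 to 0.403. hlh-1 had a -log10 q of 2.54, and the lowest of a called peak was 2.65. Of the 14 uncalled members with a pooled candidate, 6 had a summit in the window in both replicates. Another 2 had one in replicate 1 only, 4 in replicate 2 only and 2 in neither. At hlh-2 and tbx-43, which are among the 6, the replicate 2 candidate did not overlap the pooled one. Of the 35 members with no pooled candidate, 7 had one in replicate 1 only, 9 in replicate 2 only and 19 in no list, and none had one in both. The highest of these were 16.8 in replicate 1 and 13.3 in replicate 2. The matching splits over all genes were not determined, so the counts by replicate are not a result about the members.

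Called regions around some members extended beyond the promoter window. From 10 kb upstream of the gene to its end, 9 of 54 members (16.7%) had at least 1 called summit, as had 14.4% of all genes. hlh-26 and hlh-27 share theirs. mdl-1 had 6 called summits there, and it was the only member with 5 or more, which 0.035% of all genes reached (7 genes). No gene had more than 6, and 4 genes had 6, 1 of them R03E9.2, whose region shares all 6 summits with mdl-1. The 10 kb region and the limit of 5 were chosen after the values were seen, so this stands as a description.

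The called summits around mdl-1 lay on both sides of its 5' end. Those upstream were at 6610 bp with a pooled signal of 62.8, at 5553 bp with 61.8, at 4510 bp with 127.7, at 1185 bp with 103.4 and at 53 bp with 82.0. For those at 6610 and 5553 bp the nearest 5' end was that of R03E9.2, 2440 and 3497 bp away. Inside the gene a further summit was 688 bp downstream of the 5' end, with 82.8, and another lay 110 bp past the end of the gene, with 99.3. The strongest, 4510 bp upstream, had 68.7 in replicate 1, rank 198, and 59.1 in replicate 2, rank 235, and was thus above the promoter summit in each list. Its window is shown because it is the strongest of the 7, and its match in capitals is again TCTCTC. It is chrX:6737791-6737891 on the plus strand of ce11, 50 bp to either side of the summit.
upstream of mdl-1: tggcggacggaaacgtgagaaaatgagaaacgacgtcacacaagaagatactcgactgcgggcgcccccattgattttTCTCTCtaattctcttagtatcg

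mxl-3 had 4 called summits upstream, a number reached by 16 genes (0.0801%). They were at 7963 bp with a pooled signal of 123.6, at 5767 bp with 56.8, at 2813 bp with 62.5 and at 322 bp with 74.8. The farthest of them was thus the strongest, with 58.5 in replicate 1 and 63.3 in replicate 2, but its nearest annotated 5' end was that of C49F8.15.

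**Figure D5:**
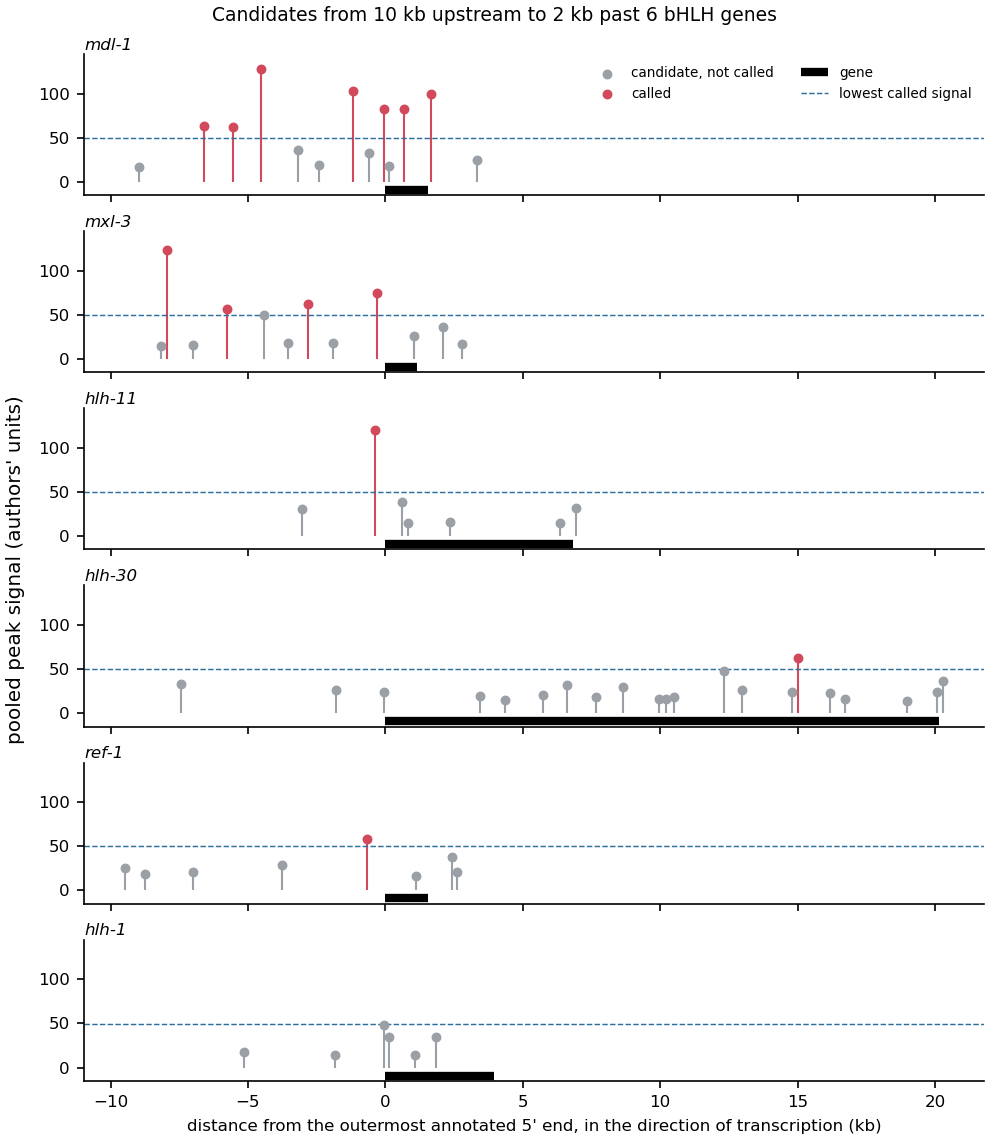
Pooled peak signal (y axis, authors' units) of candidates by distance from the outermost annotated 5' end (x axis, kb, in the direction of transcription), for 6 bHLH genes from 10 kb upstream to 2 kb past the gene, with called summits in red and the gene as a black bar. mdl-1 has 7 called summits around it and mxl-3 has 4, the others have 1 each except hlh-1, whose highest candidate of 48.5 is below the dashed line at 49.9.

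Strong regions upstream of other REF-1 family genes lay outside their windows. A called summit with a pooled signal of 258.9, rank 38, lay 3484 bp upstream of hlh-27 and 9955 bp upstream of hlh-26. It had 134.5 in replicate 1, rank 40, and 140.7 in replicate 2, rank 29, well above every promoter summit of the members. Its nearest 5' end, however, was that of ins-13, an insulin-like peptide gene, 1167 bp away, so the gene it belongs to is not shown. Its window, chrII:5543647-5543747 on the plus strand of ce11, is given for its strength and held none of the 8 motifs.
upstream of hlh-27: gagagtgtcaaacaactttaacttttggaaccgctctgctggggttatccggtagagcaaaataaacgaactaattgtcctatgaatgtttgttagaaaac

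A called summit 6520 bp upstream of hlh-28, with a pooled signal of 115.5, 52.0 in replicate 1 and 65.4 in replicate 2, had as its nearest 5' end that of the neighbouring hlh-29, 4104 bp away. That at lin-32, 7473 bp upstream with 103.4, lay in the window of vha-15, a vacuolar ATPase gene. A summit with 166.8 lay 141 bp past the end of hlh-33, in the windows of ddp-1 and ttc-7. Over a region from 10 kb upstream to 2 kb past the gene, 43 of the 53 symbols had no called summit, and 41 of these had a pooled candidate. The shares of all genes over this longer region were not determined, so these counts are not a result about the members. The highest candidates of these 41 had a median of 24.1 and were led by hlh-1 at 48.5. Next were hlh-6 at 48.2, 6447 bp upstream within dnj-20, tbx-41 at 45.6, 6485 bp upstream, and hlh-13 at 44.6, within the gene. The uncalled candidate upstream of the T-box gene tbx-41 had 24.2 in replicate 1 and 19.1 in replicate 2. Its nearest 5' end was that of T26C11.8, 1961 bp away, so the gene it belongs to is not shown.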

How the data were processed

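Peak lists from 2 biological replicates of whole L1 larvae (1 group) were used. Per the file headers and notes, the authors deposited narrowPeak lists of candidates, per replicate and pooled, that went into IDR, and the list that passed its threshold. The signal and the -log10 q-value of each peak are the authors' deposited values. Not given in the sources used here were the aligner, peak caller, signal scale and IDR threshold. The ce10 lists and control reads were not used here.

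Summits on ce11 were assigned to every protein-coding gene whose window (1000 bp upstream to 200 bp downstream of a transcript 5' end, Ensembl release 115, WBcel235) held them. The highest signal per gene was kept from each list, and no statistical test was made. Motif matches on either strand were counted up to 50 bp from the summit. The members, lists, motifs and naming rule (all called members, those with the highest pooled signal up to 20 genes, and genes of known role) were chosen with earlier results of these data known. RefSeq 5' ends, the 10 kb regions and the sequences upstream of mdl-1 and hlh-27 were chosen after seeing the data. Alternatives changed the window, the overlap rule, the 5' ends, the gene assignment, the called set and the replicate. On simulated data the assignment found all 305 summits that lay inside a window, of 400 simulated, and placed 0 wrongly. Python 3.11.15, numpy 2.4.6, pandas 2.3.3 and matplotlib 3.10.9 were used.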

Additional observations from a re-analysis of the deposited data

How the results depend on the processing

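The count of called members was 5 as reported and stayed within 1.5 times of this in all but 2 alternatives. It was 3 (hlh-11, mdl-1 and mxl-3) with a window of 500 bp upstream and 0 bp downstream, where 3.78% of all genes were called, and 3 (the same genes) when only the stronger 50% of the called list was kept, where 2.50% were. With that window the median pooled signal of members moved from 21.0 to 25.9. The count was 4 without replicate 2 (hlh-30 lost, 4.67% of all genes called) and 4 without replicate 1 (ref-1 lost, 4.57%). It was 4 with only the outermost 5' end (hlh-30 lost, 4.47% of all genes). With RefSeq 5' ends, an alternative added after the data were seen, it was 4 (hlh-11 lost, 4.68%). The other alternatives gave 5, where 3.46% to 6.25% of all genes were called. Members with a candidate numbered 13 to 26, where 26.1% to 56.3% of all genes had one. In the single replicates they numbered 20 (41.9% of all genes) and 24 (42.5%). Of the pooled values of single genes that these alternatives gave, 121 were equal or moved by less than the spread between replicates. The 5 others were those of hlh-30 in 2 alternatives, of mdl-1 and hlh-11, and of mml-1, which has no such spread. The replicate values tied by overlap with the pooled candidate equalled the reported ones in the 51 cases where both existed. Other cases disagreed. At hlh-2 and tbx-43 the replicate 2 candidate in the window (10.7 and 8.01) did not overlap the pooled one. At hlh-17 a replicate 1 candidate of 13.8 overlapped the pooled one, but its summit was outside the window. No paired analysis was possible because there is 1 group. Depth is unknown, so a missing candidate does not show that a promoter is unbound.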
